A study of Mus musculus with 16 samples.

Results

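The comparison described here is that of the mouse heart in the fasting and in the fed state, by ATAC-seq. In this assay the transposase Tn5 cuts chromatin that is open, so the number of sequenced tags stacked at a place measures how accessible its DNA was. Hearts of male C57BL/6 mice that were fed (Fed) or fasting (Fasting) were powdered, and the powder of several mice of a state was mixed in equal proportions, which left 1 library a state and no replicate. The series holds 16 such libraries from 8 tissues, and the labels name the heart without a chamber or cell type. With 1 pooled library a side, spread between mice could not be measured, no test between the states was possible, and each interval given below covers counting error only.

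Members were chosen in each state's list of peaks, where a region is a unique start and end and counts as part of the set when its q was under 0.01. Of the 141888 regions in the fasting set, 55015 (38.8%) were overlapped by no deposited fed peak, not even by 1 bp, and are called fasting-only. Of the 132541 regions in the fed set, 46949 (35.4%) had no fasting peak over them and are called fed-only. Together these are 101964 regions, while the 16 sets of the series sum to 2640607 regions. The deposited fed list reached down to a −log10 p of 2.76 (12 tags) and the fasting list only to 3.29 (15 tags). A weak fed peak could therefore be listed where a fasting peak of the same p was not, which bears on both counts. Merging both heart sets gave 191309 places, of which 70602 held a region of both sets and are called shared. A rank is the percentile of a region's p among all regions of its own deposited list, with 100 the strongest. Summit tags are the number of tags at the highest point of a peak, recovered from the deposited fold and p, and a log2 tag ratio is that of fasting over fed, with 1 added to both numbers and the median of all shared regions set to 0. At a shared place each library's strongest peak gave its tags, so the fed and the fasting summit can lie apart. The fasting library was the deeper one, with a background of 5.84 tags against 4.92 in the fed library.

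The adult heart draws most of its energy from fatty acids. In a fast, fat tissue releases fatty acids and the liver makes ketone bodies, insulin is low and glucocorticoids are high, and the heart burns still less glucose. PPARα, a nuclear receptor switched on by fatty acids, turns on genes of fat use, among them Pdk4, whose kinase shuts pyruvate out of the mitochondrion's main oxidation route. FOXO factors, which insulin keeps out of the nucleus, and the glucocorticoid receptor act on partly the same genes. Most of the heart's volume is cardiomyocytes, which carry the sarcomeres, although endothelial cells and fibroblasts are numerous.

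The label was checked against heart markers. All 10 cardiomyocyte markers had a region within 3000 bp of a start, with a median rank of 91.2 in the fed and 87.3 in the fasting library. Of all 21938 protein-coding genes, 16275 had such a region, with median ranks of 95.7 and 95.2. The 8 endothelial markers had medians of 93.0 and 94.2, so these ranks do not single out heart muscle. The strongest region near the start of Myh6, the main myosin heavy chain of the adult mouse heart, had 98 tags in the fed and 70 in the fasting library (rank 91.3 and 76.3). Near the starts of Nppa, the atrial natriuretic peptide, the regions differed between the states: the fed one, 468 bp from a start with 23 tags and rank 65.7, was fed-only, and the strongest fasting region within 3000 bp of a start, at another place, had rank 47.0. Of 5 liver markers, Alb and 3 others had no such region in either library, while Apoa1, an apolipoprotein gene, had 41 tags in the fed and 70 in the fasting library (rank 90.5 and 96.4). Of 6 lung markers, Ager had none, 3 went down in rank by 10 points or more in fasting (Sftpb, and Scgb1a1 and Nkx2-1 with a fed peak only), Foxj1 had 44 and 35 tags, and Sftpc, a surfactant gene, had 74 tags in the fed and 95 in the fasting library. Whether the Sftpc and Apoa1 regions come from heart cells or from other tissue in the pools was not tested.

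Sequences of 201 bp around the summit are given for 8 regions on which the account turns: regions near Pdk4, Txnip, Ankrd1, Fkbp5 and Sesn1 that had more tags in fasting, a region in Myh6 that had fewer, and 1 of the strongest fasting-only and fed-only regions. They were read from GRCm38, forward strand, and chosen with their values known. Capitals mark AGGTCA, the half-site of PPAR and other nuclear receptors, in the Pdk4 sequence, ACANNNTGT, the core of the glucocorticoid receptor palindrome, in those of Ankrd1 and Fkbp5, and GTAAACA, a FOXO site, in that of Sesn1. Both strands were searched, and the other sequences have no capitals. AGGTCA is also present in the Ankrd1 and Fkbp5 sequences, where it is left in lower case. Within 100 bp of the summit, AGGTCA was found in 16.3%, ACANNNTGT in 7.59% and GTAAACA in 2.67% of all 127615 heart regions over 3000 bp from a start, so a match in a single region is a description and no site of binding.
Pdk4, intergenic, 13731 bp downstream of its start, chr6:5482478-5482678: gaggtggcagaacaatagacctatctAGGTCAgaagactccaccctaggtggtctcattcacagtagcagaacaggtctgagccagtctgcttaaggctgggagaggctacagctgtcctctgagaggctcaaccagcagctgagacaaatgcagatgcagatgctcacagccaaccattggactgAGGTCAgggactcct
Txnip, 4147 bp downstream of its start, in an intron of Gm15441, chr3:96562004-96562204: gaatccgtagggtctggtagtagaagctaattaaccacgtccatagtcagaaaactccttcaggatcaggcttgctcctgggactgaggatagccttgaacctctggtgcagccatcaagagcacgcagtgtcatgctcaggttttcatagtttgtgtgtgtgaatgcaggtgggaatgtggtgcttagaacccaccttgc
Txnip, fasting-only, 5303 bp downstream of its start, in an intron of Gm15441, chr3:96563160-96563360: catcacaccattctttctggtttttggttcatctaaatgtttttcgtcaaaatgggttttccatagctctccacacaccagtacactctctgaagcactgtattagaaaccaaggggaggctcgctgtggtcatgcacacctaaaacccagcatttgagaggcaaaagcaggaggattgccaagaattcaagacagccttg
Ankrd1, intergenic, 9419 bp downstream of its start, chr19:36110580-36110780: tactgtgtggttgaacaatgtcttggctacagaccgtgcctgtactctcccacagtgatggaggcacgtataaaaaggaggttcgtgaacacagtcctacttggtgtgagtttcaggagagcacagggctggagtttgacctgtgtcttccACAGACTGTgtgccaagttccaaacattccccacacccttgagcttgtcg
Fkbp5, intronic, 4563 bp from its start, chr17:28512864-28513064: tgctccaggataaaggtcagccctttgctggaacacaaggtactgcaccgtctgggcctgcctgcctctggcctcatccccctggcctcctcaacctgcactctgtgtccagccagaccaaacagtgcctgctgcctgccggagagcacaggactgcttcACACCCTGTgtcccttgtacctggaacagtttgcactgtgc
Sesn1, over a coding exon, 84155 bp from its start, chr10:41893990-41894190: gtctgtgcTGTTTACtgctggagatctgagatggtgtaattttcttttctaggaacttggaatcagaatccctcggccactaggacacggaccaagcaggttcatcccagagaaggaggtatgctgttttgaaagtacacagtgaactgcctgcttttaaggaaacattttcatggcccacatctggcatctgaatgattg
Myh6, intronic, 12780 bp from its start, chr14:54954047-54954247: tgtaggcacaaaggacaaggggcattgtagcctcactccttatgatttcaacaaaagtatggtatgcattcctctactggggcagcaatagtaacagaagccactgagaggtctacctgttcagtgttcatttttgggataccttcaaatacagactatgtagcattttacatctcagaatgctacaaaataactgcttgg
Adra2a, fed-only, 13839 bp upstream of its start, in an intron of Shoc2, chr19:54030212-54030412: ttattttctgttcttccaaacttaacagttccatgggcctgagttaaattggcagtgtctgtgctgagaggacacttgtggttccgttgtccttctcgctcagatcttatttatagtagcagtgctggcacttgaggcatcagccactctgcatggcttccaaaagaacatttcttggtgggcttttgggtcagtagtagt
Each of these windows matched 1 place in the genome at 90% identity over 80% of its length.

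To see whether the shared regions of a gene leaned the same way, they were grouped by locus. A locus is a protein-coding gene body with 5000 bp on either side and at least 3 shared regions, and its value is the median log2 tag ratio of those regions. This measure, and the line of 0.4 (1.32-fold) used with it, were chosen after values had been seen. Summit tags take no account of the tags expected around a region. A broad rise over a locus would thus lift many of its regions together. For some regions the fold is also given, which is the ratio of the summit's tags to those expected there, with 1 added to each. Of 8147 loci, 142 (1.74%) were at 0.4 or more and 195 (2.39%) at -0.4 or less, around a median of -0.03 with an SD of 0.192. With ratios centred within bins of GC content, 154 were at 0.4 or more and 137 at -0.4 or less, so which side held more loci depended on that choice. Counting error alone can put a locus past this line, so these counts describe the libraries and are not numbers of changed genes. Over the 8 tissues that SD ran from 0.184 in spleen to 0.371 in liver. Loci with few regions have few tags, so the loci named first are the highest and lowest among the 4014 with at least 5 shared regions, of which 54 were at 0.4 or more and 50 at -0.4 or less.

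Pdk4 held the region with the largest log2 tag ratio of all shared heart regions. It had 17 tags in the fed and 143 in the fasting library at chr6:5480777-5483001, intergenic and 13731 bp downstream of the start, a log2 tag ratio of 2.89, and its rank went from 58.1 to 97.9. The region is 2225 bp wide, and the fed and the fasting summit need not be the same point in it. A second region, in an intron 7519 bp from the start, had 15 and 58 tags (1.77). Its fold was lower in fasting, with 2.70 in the fed and 2.20 in the fasting library, while that of the first region was 3.04 and 4.77. The Pdk4 start itself was strong in both states, with 87 tags in the fed and 125 in the fasting library (0.41), and its rank was 97.3 and 97.1. Summed over its 5 shared regions the locus had 173 tags in the fed and 431 in the fasting library, a log2 ratio of 1.21 (95% interval 0.95 to 1.47). All 5 regions were higher in fasting. The locus also held 4 fasting-only and 1 fed-only regions, where all 8147 loci together held 32857 and 27809. The largest differences in tags at Pdk4 were thus in the gene and downstream of it, while the ratio at its promoter, open in both states, was much smaller.

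Txnip, an arrestin-like protein that limits glucose uptake, was higher in fasting at all 9 of its shared regions, with a median log2 tag ratio of 0.89. The strongest, 4147 bp downstream of the start, had 72 tags in the fed and 233 in the fasting library (log2 1.57, rank 86.6 and 98.7). A region in its UTR had 65 and 140 tags (0.99), but its fold was 2.31 and 2.29, against 2.71 and 3.85 at the strongest region. Next to the start, at -267 bp, the tags were 81 and 113 (0.37). The strongest fasting-only region near any listed gene lay in the same stretch, at chr3:96563206-96563411 with 141 tags and rank 92.5, and the nearest fed peak was 501 bp away. The gene Gm15441 runs over the same DNA, and ATAC-seq does not say which gene a region belongs to. Ranks and tags did not always move together here: at -794 bp from the start the tags were 57 and 84, while the rank was 71.7 in the fed and 45.6 in the fasting library. A rank also depends on the tags expected around the region.

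The loci Fabp4, Ankrd1 and Timp4 also had medians of at least 0.86. Ankrd1, a stress-induced muscle ankyrin repeat protein of cardiomyocytes, had 124 tags in the fed and 319 in the fasting library over 5 regions, all higher in fasting (log2 of the sums 1.25, 95% interval 0.95 to 1.56). Its largest differences lay behind the gene, 8891 bp from the start with 20 and 78 tags and 9419 bp with 27 and 96 tags, while the region at 80 bp had 29 and 56 tags. Fabp4, a fatty acid binding protein of capillary endothelium and fat cells, had the highest median, 0.96, with 145 and 279 tags over 5 regions. Its start was the exception, with 43 tags in the fed and 41 in the fasting library, and the region 6578 bp downstream had 25 and 83 tags. Timp4, an inhibitor of matrix metalloproteinases that lies within an intron of another gene, had 169 and 357 tags, and all 6 regions were higher in fasting.

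Some longer loci, named because their medians were among the highest, carried the same lean over many regions. Cd36, the main fatty acid transporter of the heart, was higher in fasting at 28 of 28 shared regions, from 0.00 to 1.36, with a median of 0.69 and 906 tags in the fed against 1582 in the fasting library. In its locus 34 regions were fasting-only and 13 fed-only, against 32857 and 27809 over all loci. Tacc2, a centrosome protein gene, was higher at 27 of 29 regions (median 0.75, 1363 and 2312 tags, 38 fasting-only and 12 fed-only regions). Zbtb16, a zinc finger factor induced by glucocorticoids, was higher at 35 of 36 regions (median 0.68, 1938 and 3163 tags, 41 fasting-only and 12 fed-only regions). The only region of Zbtb16 that was not higher was the one at its start, with 182 and 167 tags. Bcl2l1, which makes the survival protein BCL-xL, was higher at 9 of 9 regions (median 0.59, 537 and 834 tags). In these loci the fasting-only regions were therefore neighbours of shared regions that were also higher in fasting.

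Hif1a, Agfg2, Arhgef18, Anxa4, Hsd11b1 and Sox17 were among the other loci of at least 5 regions with the highest medians. For Hif1a, the oxygen-sensing factor, 3 of 5 regions were higher and the median of 0.72 was -0.062 when the gene body alone was used. Arhgef18 and Anxa4 had intervals of the summed ratio that included 0 (-0.10 to 0.45 and -0.18 to 0.28). Hsd11b1, which regenerates active glucocorticoid inside cells, had 125 tags in the fed and 175 in the fasting library (0.38, 95% interval 0.04 to 0.72).

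**Figure D1:**
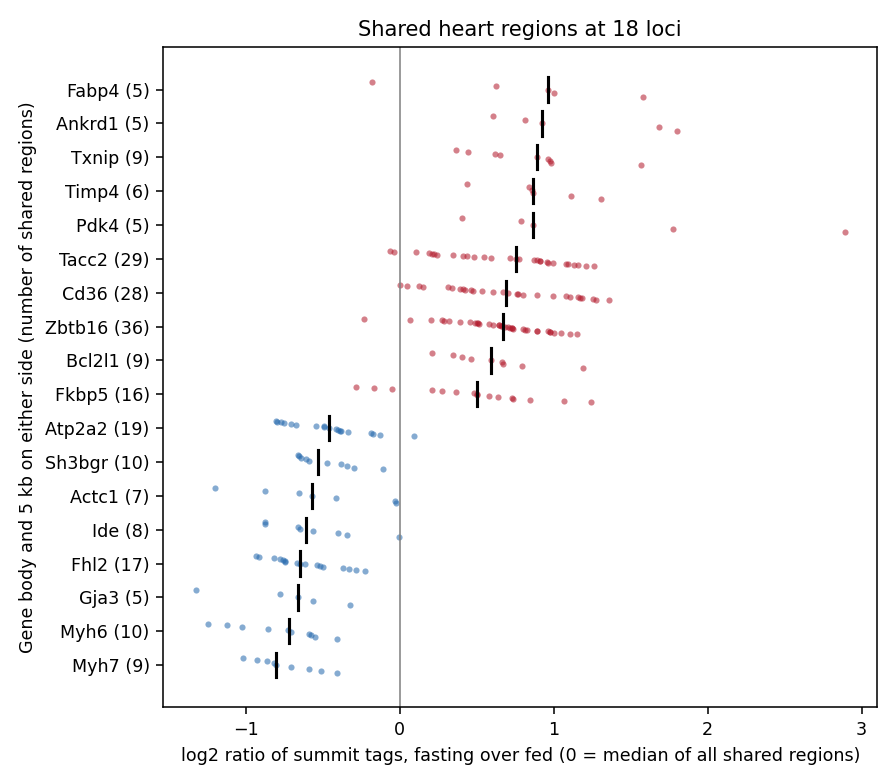
Log2 tag ratio of fasting over fed (x axis, 0 is the median of all shared regions) for each shared region (points) of 18 loci (rows, with the number of regions), with the median of a locus as a black bar. At Txnip, Cd36, Timp4, Pdk4, Bcl2l1 and Ankrd1 no point lies below 0, and at Myh6, Myh7, Gja3, Fhl2, Ide, Actc1 and Sh3bgr none lies above 0.

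**Figure D2:**
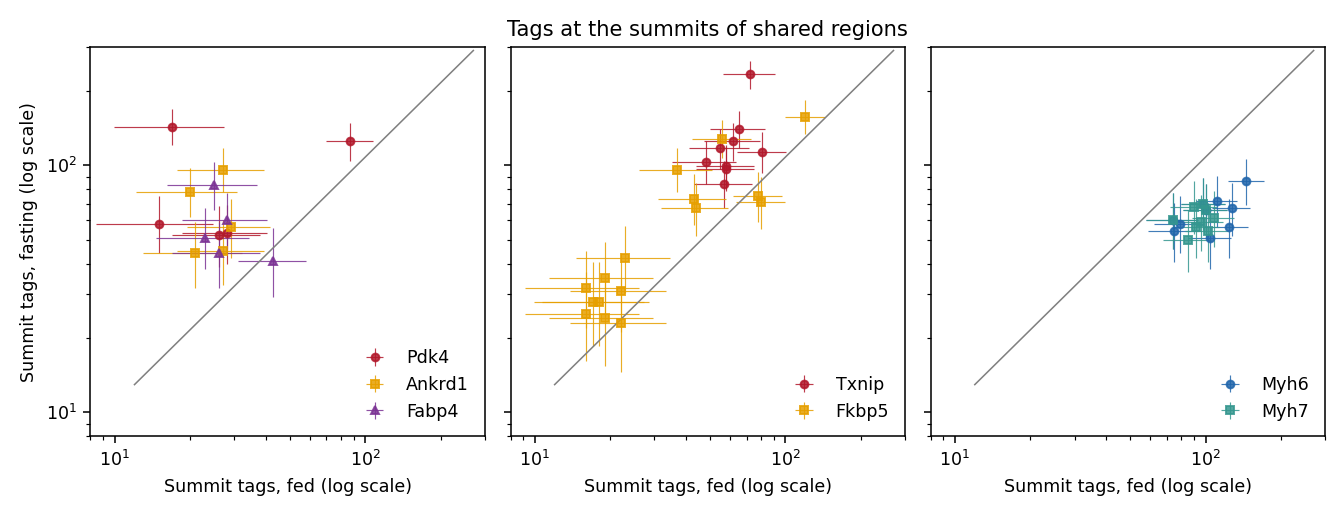
Summit tags of each shared region in the fed library (x axis, log scale) and the fasting library (y axis, log scale) at 7 loci, with 95% Poisson intervals that cover counting error only; the grey line is the median ratio of all shared regions. Pdk4, Ankrd1, Fabp4, Txnip and Fkbp5 regions lie mostly above the line, by most at the Pdk4 region with 17 and 143 tags, and all Myh6 and Myh7 regions lie below it.

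The lowest loci were those of the cardiac myosins. Myh7, the slow myosin heavy chain next to Myh6 on chromosome 14, had the lowest median of the loci with at least 5 regions, -0.80, with 845 tags in the fed and 544 in the fasting library over 9 regions. Myh6 had a median of -0.71 over 10 regions, with 1037 and 640 tags (log2 of the sums -0.81, 95% interval -0.95 to -0.66). All regions of both loci were lower in fasting. The loci lie head to tail and share 3 regions. Within Myh6, the tags were 127 in the fed and 67 in the fasting library 12780 bp from the start, 104 and 51 at 10197 bp, 124 and 56 at 16352 bp, and 100 and 66 at the start. Unlike at Pdk4, the difference at the myosin genes took in start and gene body alike. Myh6 and Myh7 are close paralogues, and reads of their most similar exons may be shared out or dropped by alignment, while the printed Myh6 window has no second copy.

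Other loci, some of them of heart muscle, were on the same side. Fhl2, a LIM protein of cardiomyocytes, was lower in fasting at 17 of 17 regions (median -0.65, 1164 and 835 tags). Inside it lay 9 fasting-only and 25 fed-only regions, against 32857 and 27809 over all loci. Actc1, the cardiac actin, was lower at 7 of 7 (median -0.57, 423 and 324 tags), from 65 and 30 tags 7229 bp from the start to 62 and 66 tags at -3981 bp (-0.02). Atp2a2, the calcium pump of the sarcoplasmic reticulum, was lower at 18 of its 19 regions (median -0.46, 1503 and 1189 tags), although its start differed little, with 131 and 124 tags. Gja3, a connexin, was lower at all 5 regions (204 and 128 tags), Sh3bgr at all 10 (396 and 302 tags) and Ide, the insulin-degrading enzyme, at all 8 (358 and 263 tags). Ckm, muscle creatine kinase, had 313 tags in the fed and 248 in the fasting library (median -0.48, 95% interval of the summed ratio -0.69 to -0.20). At Gpc1, also among the lowest medians, the interval of the summed ratio included 0 (-0.51 to 0.02).

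Gene lists of heart biology, written with earlier results known, were read on the same measure. Among genes of PPAR and fasting factors, 11 of 12 had a locus value, with 3 at 0.4 or more (Pdk4, Txnip and Angptl4 at 0.47) and none at -0.4 or less. Over all loci 1.74% were at 0.4 or more and 2.39% at -0.4 or less. The list median was 0.16 against -0.03 for all loci. Angptl4, an inhibitor of lipoprotein lipase, had 181 tags in the fed and 266 in the fasting library. The receptors themselves were not higher, at -0.17 for Ppara and -0.15 for Ppard. The list of fatty acid uptake and oxidation had 1 locus of 16 at 0.4 or more, Cd36, but 13 of 16 lay above 0, with a median of 0.13, against 3629 of all 8147 loci. Lpl, lipoprotein lipase, was at 0.34 (510 and 679 tags), Pnpla2, the triglyceride lipase, at 0.31 and the carnitine transferases Cpt1a and Cpt1b at 0.02 and 0.10.

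Genes of autophagy and protein breakdown and of the glucocorticoid response had the highest list medians, 0.21 and 0.22. In the first list 3 of 10 loci were at 0.4 or more, against 1.74% of all loci. These were Fbxo32 (0.48, 206 tags in the fed and 301 in the fasting library), Gabarapl1 (0.48, 152 and 226 tags, but 0.33 with the gene body alone) and Bnip3 (0.45, 189 and 249 tags, but 0.29 by summed tags). Fbxo32 is a ubiquitin ligase of muscle wasting, Gabarapl1 an autophagosome protein and Bnip3 a mitophagy receptor. Sqstm1, an autophagy adaptor, and Trim63, the other wasting ligase, were just below the line at 0.38 and 0.35. In the second list 3 of 12 loci were at 0.4 or more, against 1.74% of all loci, which were Mt1 (0.71), Zbtb16 (0.68) and Fkbp5 (0.50). Fkbp5, a chaperone of steroid receptors, was higher at 13 of 16 regions, with 630 and 935 tags in all. Inside it lay 19 fasting-only and 4 fed-only regions, against 32857 and 27809 over all loci. The intronic regions of Fkbp5 4563 bp and 1540 bp from the start had 56 and 128 and 37 and 96 tags. Mt1, a metallothionein, had 33 tags in the fed and 106 in the fasting library at chr8:94182613-94182809. Sgk1, a kinase of salt and glucose transport, was higher at 10 of 10 regions with a median of 0.30, and Nr3c1, the glucocorticoid receptor gene, was at -0.24.

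Glucose, insulin and ketone genes gave smaller values. None of 17 loci of glucose uptake and glycolysis passed 0.4 either way (median -0.07), with Slc2a4, the insulin-dependent glucose transporter, lowest at -0.39 and lower at all 4 regions, Hk2 at -0.27 and Gys1, glycogen synthase, highest at 0.32. All 5 loci of ketone body use lay below 0, as did most of all loci (3629 of 8147 lay above 0), from -0.29 for Acat1 to -0.08 for Slc16a1, and Oxct1, which activates acetoacetate, was lower at 10 of 11 regions with 433 tags in the fed and 369 in the fasting library. Of 11 loci of insulin and FOXO signalling, Irs1 alone passed the line (-0.44), Irs2 was at -0.20 and Foxo3 highest at 0.28. Over all loci 2.39% were at -0.4 or less. Sesn1, a target of FOXO and p53 that restrains mTORC1 and a member of the list of fasting factors, was higher at 8 of 9 regions (449 and 601 tags), most at the region printed above, with 22 and 61 tags (log2 1.32).

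Loci of heart muscle identity were mostly below 0, as were most of all loci. In the sarcomere list 5 of 17 loci lay above 0. In it 3 loci were at -0.4 or less (Myh6, Myh7 and Actc1) and 1 was at 0.4 or more (Myom2, an M-band protein, 389 and 543 tags). Over all loci 2.39% were at -0.4 or less and 1.74% at 0.4 or more. The sarcomere median was -0.11 against -0.03 for all loci. Ttn, the giant titin gene, was at 0.18, higher at 33 of 47 regions. Of 18 loci of calcium handling and ion channels, 17 lay below 0, with a median of -0.15 against -0.03 for all loci, of which 3629 of 8147 lay above 0, and Atp2a2 and Kcnip2 (-0.42) passed the line. Ryr2, the calcium release channel, had 2436 tags in the fed and 2381 in the fasting library over 65 regions, a median of -0.15. Inside it lay 81 fasting-only and 84 fed-only regions, against 32857 and 27809 over all loci. Of 14 cardiac transcription factor loci, Nkx2-5 passed the line (-0.55, 143 and 109 tags) and the median was -0.20. By the ratio of summed tags, Myom2 (0.37), Irs1 (-0.32) and Kcnip2 (-0.25) were under the line, as were Irs1 (-0.30) and Kcnip2 (-0.28) with ratios centred by GC content and Kcnip2 (-0.24) with the gene body alone. The circadian clock (median -0.0027 over 17 loci), ATF4 stress response (0.01 over 8), natriuretic peptides and hormone receptors (-0.05 over 10) and immediate early genes (-0.14 over 12) had no locus past the line in either direction.

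**Figure D3:**
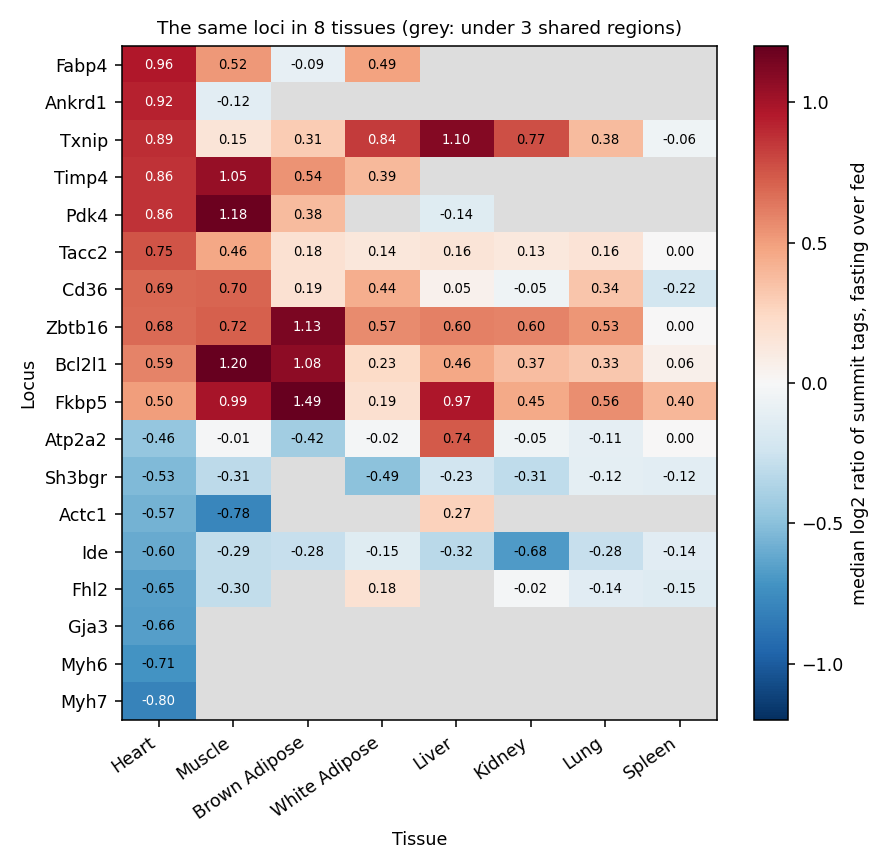
Median log2 tag ratio of fasting over fed (colour and number) of 18 loci (rows) in the 8 tissues (columns), grey where fewer than 3 regions were shared. Fkbp5 is above 0 and Ide below 0 in all 8 tissues, while Myh6, Myh7 and Gja3 have a value in heart alone.

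The same measure was taken in the other 7 tissues, each with 1 pooled library a state. Fkbp5 was higher in fasting in all 8 tissues, from 0.19 in white adipose to 1.49 in brown adipose. Ide was lower in all 8, from -0.14 in spleen to -0.68 in kidney. Txnip reached 1.10 in liver, 0.84 in white adipose and 0.77 in kidney, and was -0.06 in spleen. Pdk4 was at 1.18 in muscle and 0.38 in brown adipose but at -0.14 in liver. Cd36 and Timp4 were at 0.70 and 1.05 in muscle. Ankrd1, by contrast, was at -0.12 in muscle, the only other tissue with enough shared regions, and Tacc2 was at 0.46 there. Actc1 was at -0.78 and Ckm at -1.10 in muscle. None of these differences between tissues was tested.

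The one-state regions were mostly weak. Fasting-only regions had a median of 20 summit tags and rank 49.1, with a lowest value of 17 tags, and fed-only regions a median of 18 tags and rank 52.7, with a lowest value of 15. Regions of the sets that a peak of the other state overlapped had medians of 32 tags in the fasting and 29 in the fed set, and rank 78.0 and 78.4. In the lowest rank range of the sets, 30 to 40, 73.3% of fasting and 72.5% of fed regions lacked a peak in the other state. In the top range, above 90, this held for 27 of 20649 fasting regions (0.131%) and 31 of 20610 fed regions (0.150%). A peak of the other state lay within 1000 bp of 46.1% of the fasting-only and 48.0% of the fed-only regions.

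**Figure D4:**
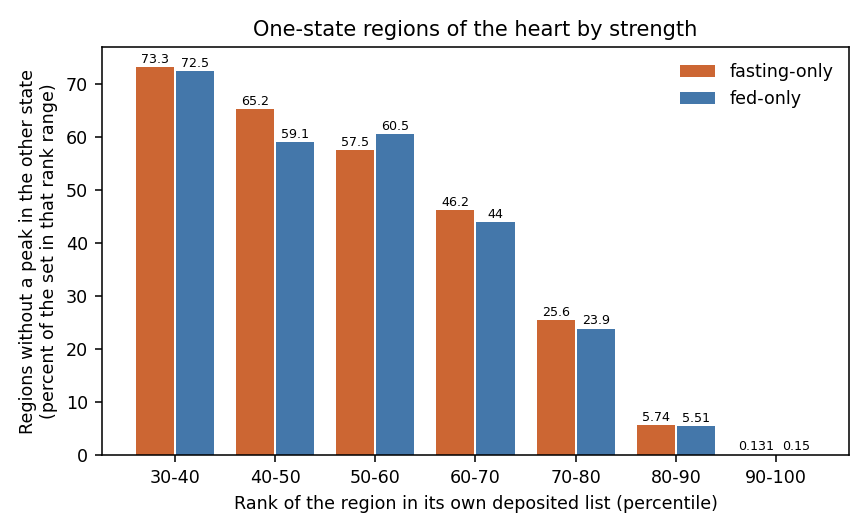
Share of the regions of the fasting set (orange) and of the fed set (blue) that have no overlapping peak in the other state (y axis, percent), by rank in their own deposited list (x axis, percentile). Both shares go down from over 70% in the lowest range to under 0.2% in the highest.

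Fasting-only regions outnumbered fed-only regions by a log2 ratio of 0.23, next to a log2 ratio of library background of 0.25, and with the fasting summit tags thinned by the ratio of the backgrounds the sign turned, with 44637 fasting-only and 49353 fed-only regions (-0.14). Shared regions differed by less than the backgrounds, with a median log2 tag ratio of 0.11 before centring, so this thinning does not make peaks equal in depth. The thinning could only remove fasting peaks and add none, so fed-only regions could not become fewer by it. Both groups were alike in place: 26.6% of the fasting-only and 26.6% of the fed-only regions lay within 3000 bp of a start, against 43.1% and 43.5% of overlapped regions, and 56.7% and 57.8% had their summit in an intron. No peak of any other tissue overlapped 36.1% of the fasting-only and 34.7% of the fed-only regions, against 4.54% and 4.39% of overlapped regions. In other tissues the share of a fasting set that was fasting-only ran from 19.2% in brown adipose to 49.8% in spleen.

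Some genes had many more regions of one kind than of the other. Counted by the nearest protein-coding start, 58.3% of genes had a fasting-only and 55.6% a fed-only region, and of the 12 PPAR and fasting factors 11 had a fasting-only and 9 a fed-only one. Near those 12 genes lay 118 fasting-only and 61 fed-only regions, and near the 17 glucocorticoid response genes 127 and 65, against 46756 and 40066 near all genes. Near the 5 ketone genes there were 23 and 30. Single genes with the largest excess in fasting were Cd36 (41 and 15), Celf2 (41 and 15), Tacc2 (37 and 12), Prune2 (40 and 16) and Mrtfb (28 and 6), the last a cofactor of serum response factor. In the fed state they were Ank2, an ankyrin that anchors ion transporters (14 and 36), Fhl2 (15 and 32), Qk (27 and 42), Frmd6 (4 and 17) and Rgs6 (9 and 22). Ryr2 had the most of both kinds, 72 fasting-only and 82 fed-only, and Plcb4 and Tcf4 each had 50 and 30.

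The strongest fasting-only region by rank, at chr11:26963281-26963620, was intergenic and 369471 bp from the start of Vrk2, with 42 tags where 5.84 were expected, and was overlapped in no other tissue. Next came a region near Depp1, known as a FOXO target, with 91 tags at chr6:116654500-116654939, in an intron of Rassf4. A fed peak ended 79 bp away from it, as one did 501 bp from the Txnip region. Limd1 (72 tags), Cdh23, Alg8, Gramd1b, Otos, Dnm3 and Qdpr completed the strongest 10. On the fed side the strongest were near Gm14496 (79 tags), Sfi1 (131 tags, with a fasting peak 56 bp away), Svbp (43 tags), Adra2a (41 tags where 4.92 were expected, with the nearest fasting peak 14137 bp away), Pphln1 and Cluh (81 tags), a regulator of mitochondrial mRNAs. Tcf7l2, Adck1 and Fhod3 were also among the strongest 10. Near a glucose gene, a fed-only region in an intron of Hk2, hexokinase, had 62 tags, with a fasting peak 71 bp away. The windows of the strongest 10 regions of each kind matched a single place in the genome.

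Ranks of the 70602 shared regions moved little as a whole, with a median shift of -0.14 points and an SD of 14.1. Of them 11706 (16.6%) went up and 12803 (18.1%) went down by 10 points or more, and with ranks within the set 17848 went up and 14414 down, so the balance depended on that choice. Across regions the ranks in the fed and the fasting library had a Pearson correlation of 0.656 and a Spearman correlation of 0.778, with no p given because regions of a library share its depth and base composition. The largest upward shifts were at regions near Rcor3, Hivep3 and Tgm2, with 36 and 70, 15 and 55, and 25 and 60 tags in the fed and fasting library. The largest downward shifts were near Cpne2 (52 and 25 tags), Trdn, triadin of the calcium release complex (43 and 21 tags, 336 bp upstream of a start), and Fcho1 (37 and 19 tags). Among regions with at least 50 tags in both libraries, the largest losses of tags lay upstream of Fcgr3 (146 and 59, 128 and 52, and 141 and 67 tags), in Myh6, at the start of Uxs1 (171 and 85 tags) and at the start of Atg9a (110 and 55 tags). The Fcgr3 regions were intergenic, and Fcgr3 is only their nearest protein-coding start. The first had a log2 tag ratio of -1.40, equal to the lowest value of heart regions at transfer RNA genes, described below. Among the same regions with at least 50 tags, the largest gains were near Txnip, Tacc2 (55 and 134 tags), Pim3 (67 and 154), Pomgnt2 (51 and 117) and Fkbp5. The fold differed little at the Tacc2 region (2.78 and 2.71) and the Fkbp5 region (4.17 and 4.08). It was higher in fasting at those of Pim3 (2.89 and 4.07) and Pomgnt2 (2.83 and 4.51).

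At promoters, the highest rank within 3000 bp of a start was compared for 16275 protein-coding genes, and the tags given are the highest in that window. Of these 1188 (7.3%) went up and 1406 (8.64%) went down by 10 points or more. Most of the listed metabolic genes had a promoter rank near 95 in both libraries, as did promoters in general (median 95.7 and 95.2). Of the 22 fatty acid genes none went up and Plin5, a lipid droplet protein, went down (-13.4 points, with 60 and 59 tags). Lcn2, lipocalin 2, was the only listed pathway gene that went up (48.4 points, 20 and 36 tags). Those that went down were, besides Plin5, Myh6 (-15.0), Myh7 (-14.3), Myl7, the atrial light chain (-53.9, with no fasting peak), Kcnq1 (-10.1), Nppa (-18.6, and -65.7 within 1000 bp of a start, where there was no fasting peak) and Fgf21 (-21.5, with 18 tags in both). The largest shifts of all were at weak promoters that had a peak in only 1 library, such as Zfp600 (35 tags, fasting) and Smim10l2a (31 tags, fed).

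Motifs were counted within 100 bp of the summit at regions over 3000 bp from a start, by their exact letters on both strands, and the share of regions that hold one is given with its 95% Wilson interval. The groups were shared regions with 1.5-fold or more tags in fasting after centring (2396 regions), those with 1.5-fold or more in the fed state (1535) and those within 1.2-fold (22719). The glucocorticoid receptor core ACANNNTGT was found in 10.3% (9.11% to 11.6%) of the regions higher in fasting, 7.34% of those within 1.2-fold and 5.86% (4.79% to 7.15%) of those lower. The FOXO site GTAAACA was found in 4.30% (3.56% to 5.19%), 2.80% and 1.56% (1.05% to 2.32%). The AP-1 site TGANTCA of FOS and JUN was found in 14.3% (12.97% to 15.8%), 8.98% and 5.54% (4.50% to 6.797%). Each of these 3 motifs had its highest share where tags were higher in fasting. Regions of a library are not independent replicates, so the intervals describe counting error and test nothing.

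Other motifs had their highest share where tags were lower in fasting. The MEF2 site, found at many muscle genes, was found in 1.04% (0.708% to 1.54%) of regions higher in fasting, 1.98% of those within 1.2-fold and 4.76% (3.799% to 5.94%) of those lower. The site TCAAGGTCA of the oestrogen-related receptors, which drive mitochondrial genes in heart, was found in 0.459% (0.256% to 0.820%), 0.577% and 1.56% (1.05% to 2.32%). The half-site AGGTCA, which is also part of TCAAGGTCA, was found in 15.2% (13.8% to 16.6%), 16.6% and 22.0% (19.96% to 24.1%). Of the 14 motifs counted, the other 8 included TEAD (1.67%, 1.30% and 1.498%), T-box (0.918%, 0.744% and 0.847%) and GATA (2.96%, 3.05% and 3.58%), also known from heart genes, whose shares were closer between the groups. Among one-state regions the MEF2 site was in 0.384% of 40386 fasting-only and 0.995% of 34457 fed-only regions, ACANNNTGT in 7.99% and 6.96%, and GTAAACA in 2.51% and 2.50%. Mean GC content was close in the shared groups, 51.1% in regions higher and 51.4% in regions lower in fasting, and was 49.8% in fasting-only and 49.7% in fed-only regions. Over all shared regions the log2 tag ratio depended on GC content, with a median of 0.04 between 45% and 50% GC and of -0.14 above 65%.

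**Figure D5:**
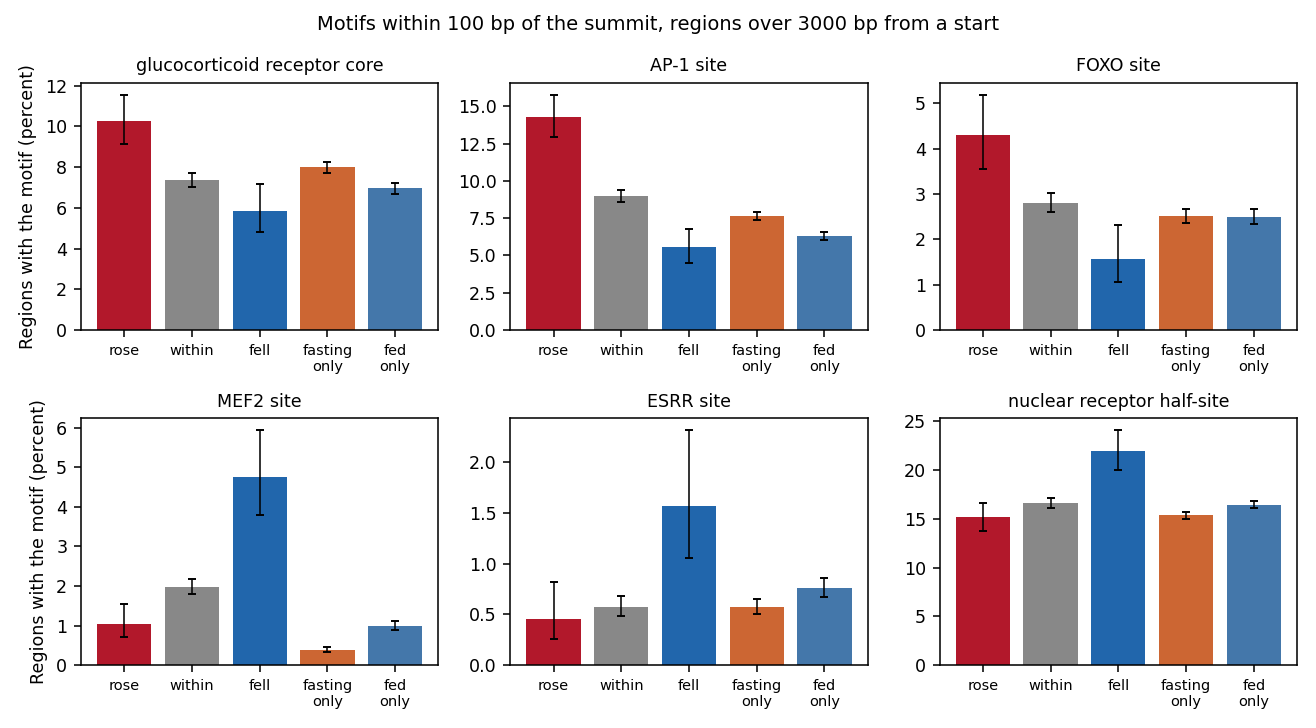
Share of regions over 3000 bp from a start with a motif within 100 bp of the summit (y axis, percent) for shared regions that were 1.5-fold or more higher in fasting (rose), within 1.2-fold, or 1.5-fold or more lower (fell), and for fasting-only and fed-only regions; bars start at 0 and carry 95% Wilson intervals. The glucocorticoid receptor, AP-1 and FOXO motifs are most frequent in the first group and the MEF2, ESRR and half-site motifs in the third.

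In a bulk library, fewer cells of a type and less open chromatin per cell cannot be told apart, so markers of the cell types of the heart were measured beside these loci. Over all 8147 loci, 3629 lay above 0, the median was -0.03, 2.39% were at -0.4 or less and 1.74% at 0.4 or more. Of 9 cardiomyocyte marker loci, 1 (Tbx20) lay above 0, the list median was -0.27, and 3 were at -0.4 or less (Myh6, Nkx2-5 and Actc1). Of 8 endothelial marker loci, 5 lay above 0, with a median of 0.11 from -0.20 for Egfl7 to 0.96 for Fabp4, and Pecam1, the general endothelial marker, was higher in fasting at 14 of 18 regions (median 0.26, 719 and 944 tags). The 3 fibroblast loci with a value had a median of -0.23, and the 3 macrophage loci one of -0.05. The 3 smooth muscle and pericyte loci had a median of 0.04, with 2 of them above 0. At promoters, 4 of 7 markers of smooth muscle and pericytes went down by 10 points or more and 3 of 7 macrophage markers went up (Csf1r with 21 and 37 tags, which turned to -54.0 points with a window of 1000 bp, and Adgre1 and Mrc1 with a fasting peak only), where the background was 8.64% and 7.3%.

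Markers of fat and muscle were also measured. Of 7 fat cell markers, Ucp1, Adipoq and Lep had no promoter region in either library. Near the 7 genes lay 26 fasting-only and 7 fed-only regions, 13 and 1 of them near Pparg, against 46756 and 40066 near all genes. Of 8 skeletal muscle markers 4 had no promoter region, the myosin genes Myh4, Myh1 and Myh2 among them. The part of a change in cell types in the values of the cardiomyocyte, endothelial and fat-related loci was not tested.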

How the data were processed

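The heart libraries of fed and fasting male C57BL/6 mice were analysed from the deposited peak lists. Per the labels and the study's methods, the authors aligned trimmed reads to GRCm38 with Bowtie2, removed duplicates and called peaks with MACS2, whose versions are not given in the sources used here. Column 7 as deposited is the fold, a ratio of the summit's tags to those expected there, 1 added to each. The deposited −log10 p and −log10 q come from the authors' Poisson test, and neither column is scaled between libraries.

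Rows with the same start and end were taken as 1 region with the smallest p. Fold and p gave a whole tag number within 0.001 for 99.99% of fed and 99.988% of fasting rows, which hold 206098 regions (fed) and 205981 regions (fasting). Ranks, sets, overlaps, summit tags and loci are defined in the report. Tag intervals are Poisson, intervals of summed ratios exact binomial and those of motif shares Wilson, all at 95%. Sums assume that summits of a locus share no tags. Genes came from GENCODE vM21 (21938 protein-coding genes), the genome from RefSeq GRCm38.p6. The study annotated with a later release, not used here. Python 3.11.15, NumPy 2.4.6, pandas 2.3.3, SciPy 1.17.1, matplotlib 3.10.9 and BLAST 2.17.0+ were used, and the computations were checked on simulated data.

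The members, lists and alternatives were chosen with earlier results of these data known. The text names listed genes and markers, the 10 strongest one-state regions a side, the 10 largest shifts each way of regions and promoters, and the 5 genes with the most one-state regions. Loci, largest excesses and the regions with at least 50 tags in both were chosen after their values were seen. Some genes that the rule names are not reported here.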

Additional observations from a re-analysis of the deposited data

Results flagged for a closer look

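The 20 highest and the 20 lowest heart loci of at least 5 regions, all past the line of 0.4, were searched in the other tissues. Of these, 7 were past the same line with the opposite sign in another tissue. The remaining heart loci past the line were not searched. Each value is a median log2 tag ratio of fasting over fed from 1 library a state, and the difference between tissues was not tested. In heart, 4 of the 7 came under the line in an alternative, namely Mef2b (-0.397) with ratios centred by GC content, Gm49321 (0.28) and Mmd (-0.34) by summed tags, and Zfp988 (0.24) and Mmd (-0.37) over regions with 20 tags or more in both states. Atp2a2, the calcium pump, was at -0.46 in heart over 19 regions and at 0.74 in liver. Zfp988 was at 0.53 in heart and -1.33 in liver. Sox17, an endothelial transcription factor, was at 0.51 in heart and -0.59 in liver. Mmd was at -0.47 in heart and 0.51 in liver, and Mef2b at -0.46 in heart and 0.44 in liver. Gm49321 was at 0.52 in heart and -0.61 in white adipose. Tmem170b was at -0.50 in heart and 0.55 in white adipose. Liver had the widest spread of locus values among the 8 tissues, with an SD of 0.371 against 0.192 in heart.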

How the results depend on the processing

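No paired analysis was possible because each state is 1 pooled library and no replicate is numbered in the labels. For the same reason no replicate could be left out. The counts of one-state regions followed the threshold. Fasting-only and fed-only regions numbered 23254 and 20113 at q under 0.001, 2004 and 2201 at a −log10 q of 6 or more, 105090 and 101649 with all deposited peaks, and 2893 and 2727 among the 50000 strongest regions of each list. With no peak of the other state within 1000 bp, an alternative added after values were seen, they numbered 29659 and 24440, and with overlap of 50% of both lengths fed-only regions numbered 71723. The log2 ratio of fasting-only over fed-only regions was 0.21, -0.14, 0.048 and 0.085 under the first 4 of these settings, 0.28 with the distance of 1000 bp, 0.15 with 50% overlap, 0.27 when only regions of the other set counted, and -0.14 with fasting tags thinned by the ratio of the backgrounds. Its sign turned at a −log10 q of 6 or more and under this thinning, which can only remove fasting peaks. The promoter share of fasting-only minus fed-only regions, -0.02 points in the main setting, was 2.65 at a −log10 q of 6 or more, -0.90 with all peaks, -0.97 with 50% overlap and -0.78 with a promoter window of 1000 bp.

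At a −log10 q of 6 or more, promoters that went up and down by 10 points numbered 301 and 518, and shared regions 651 and 475. With ranks within the set, 17848 shared regions went up and 14414 down, which turned their balance. The Csf1r promoter turned to -54.0 points with a window of 1000 bp, and the Hif1a locus to -0.062 with the gene body alone. Of 50 named loci, 44 kept their side of 0.4 with ratios centred by GC content and 35 with summed tags. Under the alternatives, loci at 0.4 or more numbered 109 to 154 and those at -0.4 or less 137 to 186, each within 1.5 times the main count. Depth limits single regions, whose tags are few.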

Other observations

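Genes of transfer RNAs, which RNA polymerase III transcribes to carry amino acids to the ribosome, were looked at after the tags upstream of Fcgr3 had been seen. Of 403 transfer RNA genes in the RefSeq annotation, 177 heart regions shared by both states lay at one, with a median log2 tag ratio of fasting over fed of -0.21 and 38 of them above 0. The median was -0.27 in muscle (18 of 136 above 0), -0.26 in kidney (30 of 150), -0.24 in white adipose (29 of 148) and -0.23 in brown adipose (22 of 104). It was 0.07 in liver (87 of 165), 0.10 in lung (104 of 154) and 0.03 in spleen (66 of 128). Copies of a transfer RNA gene can be near-identical, so tags at single copies are uncertain, and neighbouring genes can lie in the same region.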
